A study of Arabidopsis thaliana with 12 samples.

Results

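The class I KNOX genes of Arabidopsis thaliana are KNAT1, STM, KNAT2 and KNAT6. They were chosen by locus (AT4G08150, AT1G62360, AT1G70510 and AT1G23380) and make up 4 of the 32673 genes in the count table. All 4 passed the filter on low counts, as did 19879 genes in all.

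Class I KNOX genes encode homeodomain transcription factors of the TALE class, which keep cells of the shoot apical meristem undifferentiated. They act as dimers with BELL homeodomain proteins, raise cytokinin and lower gibberellin (GA) in the meristem, and are kept off in leaves. STM is needed to form and maintain the shoot meristem, KNAT1 (also called BREVIPEDICELLUS) shapes internodes and pedicels and acts in the cambium, and KNAT2 and KNAT6 are a closely related pair. KNAT6 acts with STM in the meristem and at organ boundaries, and KNAT1 is known to restrict KNAT2 and KNAT6 in the inflorescence.

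RNA of whole seedlings was sequenced in 12 libraries, 3 in each of 4 groups. Seedlings aged 7 days, of wild type No-0 (Nossen) or of 35S::KNAT1, in which a viral promoter active in most tissues drives KNAT1, were first held for 18 h in liquid medium with 10 μM paclobutrazol (PAC), an inhibitor of GA synthesis. For the next 5 h they received either 10 μM PAC with 100 μM GA3, an active GA (PAC+GA3), or PAC alone (PAC). Every group, the controls included, therefore carried PAC, and no seedlings without it were analysed. The labels do not say how many independent 35S::KNAT1 lines were used, nor whether replicates were separate cultures, so the error behind each p-value is that of these libraries and may be technical.

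Total counts ran from 9232836 to 14053594 per library. In all, 3 libraries stood apart by their share of ribosomal RNA. It was 0.488% in replicate 2 and 0.347% in replicate 3 of wild type under PAC, 1.43% in replicate 1 of 35S::KNAT1 under PAC+GA3, and 0.11% to 0.197% in the other libraries. Each genotype and GA3 difference was also computed without them. In bulk RNA, fewer cells of a type and less RNA per cell cannot be told apart. The shoot meristem genes WUS and CLV3 had 0 counts in all wild type libraries, and WUS had 0 in the 35S::KNAT1 libraries too. CLV1 and HEC1, also on the list of shoot meristem markers, were detected in every group.

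The 4 genes are represented by a stretch of 90 coding bases in the last exon (exon 4 of STM, exon 5 of the others), because it holds the part of the homeodomain that all 4 share and shows how far reads of one could be taken for another. Capitals mark 30 bases that encode part of the recognition helix, which contacts DNA. The sequences are from RefSeq, build TAIR10.1, on the coding strand, 5′ to 3′. KNAT1 lies at chr4:5148071-5148160 (minus strand), STM at chr1:23058901-23058990 (minus), KNAT2 at chr1:26582005-26582094 (plus) and KNAT6 at chr1:8297553-8297642 (minus).
KNAT1: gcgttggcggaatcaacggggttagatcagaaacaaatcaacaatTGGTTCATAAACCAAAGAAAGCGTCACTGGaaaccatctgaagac
STM: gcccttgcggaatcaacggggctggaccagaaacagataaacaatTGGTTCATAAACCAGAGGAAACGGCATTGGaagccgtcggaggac
KNAT2: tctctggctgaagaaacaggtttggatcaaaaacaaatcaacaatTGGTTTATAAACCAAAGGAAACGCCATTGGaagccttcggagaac
KNAT6: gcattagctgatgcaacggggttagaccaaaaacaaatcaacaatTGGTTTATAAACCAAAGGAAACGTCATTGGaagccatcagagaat

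Among these stretches KNAT2 and KNAT6 were the most alike, with 84.4% of 90 bases and 29 of the 30 capitals in common, and the other pairs shared 77.8% to 82.2%. Over the whole proteins KNAT2 and KNAT6 were 76.1% identical, and the other 5 pairs 45.2% to 53.0%. The longest run of identical coding bases was 41 for KNAT2 and KNAT6 and 15 to 20 for the other pairs. In a search of the genome with windows of 36 bases, 6 of 1205 windows of KNAT2 exons and 6 of 1182 of KNAT6 exons occurred elsewhere, and none of KNAT1 or STM. With windows of 50 bases none occurred elsewhere for any of the 4. The search counted exact matches in TAIR10.1. It does not cover reads aligned with mismatches, or sequence that differs in No-0. No other gene overlapped any of the 4 genes in either annotation, so antisense reads of a known neighbour do not enter their counts.

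The gene structures followed the same grouping. KNAT2 (chr1:26576486-26582431, plus strand) and KNAT6 (chr1:8297291-8302651, minus) both had 5 exons, an exon 3 of 139 bases, an exon 4 of 242 bases and a long intron 3, of 4162 and 3676 bases. KNAT1 (chr4:5147700-5150966, minus) also had 5 exons with an exon 3 of 139 bases, but its longest intron was 683 bases. STM (chr1:23058582-23061722, minus) had 4 exons. These spans are the authors' (TAIR10), and the exons are RefSeq's. The predicted proteins had 398 residues for KNAT1, 382 for STM, 314 for KNAT2 and 329 for KNAT6.

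**Figure D1:**
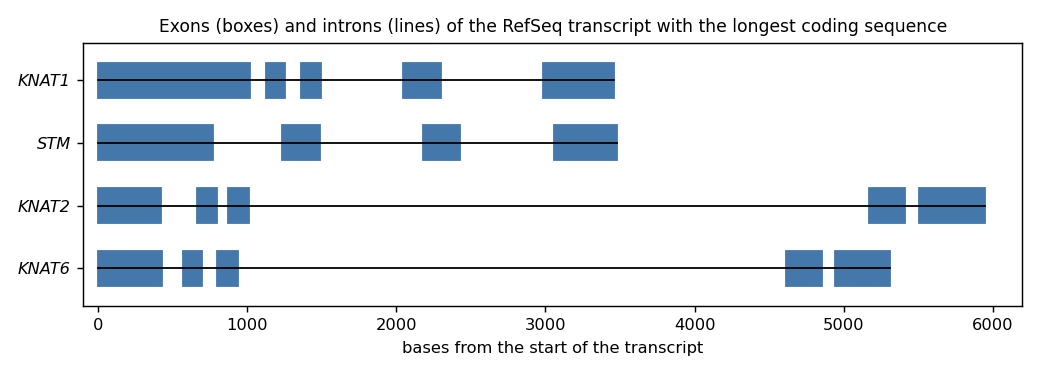
Exons (boxes) and introns (lines) of the 4 class I KNOX genes, drawn from the start of the RefSeq transcript, with the x axis in bases. KNAT2 and KNAT6 share a long intron 3, of 4162 and 3676 bases, which KNAT1 and STM lack.

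KNAT1 was the most abundant of the 4 genes in wild type and KNAT6 the next. Compared per exon length, in RPKM (counts scaled by TMM to a common library size, or CPM, divided by the kilobases of exon inside the counted span), the wild type PAC levels were 11.4 ± 1.95 for KNAT1, 5.31 ± 0.791 for KNAT6, 2.12 ± 0.349 for STM and 1.35 ± 0.182 for KNAT2 (SD, n = 3). In wild type PAC+GA3 the order of these RPKM levels was the same, at 12.2 ± 0.252, 6.0 ± 1.04, 1.82 ± 0.657 and 0.783 ± 0.309. In both wild type groups the libraries of neighbouring genes in this order did not overlap. In the 35S::KNAT1 groups the libraries of STM and KNAT2 did overlap, with RPKM of 0.759 to 0.898 against 0.828 to 1.30 under PAC and 0.395 to 1.09 against 0.455 to 0.900 under PAC+GA3, so no order of these 2 genes can be given there.

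KNAT1 itself checks the labels. Its counts in the 3 replicates, in order, were 203, 204 and 261 in wild type PAC and 305, 219 and 238 in wild type PAC+GA3. In 35S::KNAT1 they were 5010, 4768 and 4243 under PAC and 4823, 4798 and 5513 under PAC+GA3. Every 35S::KNAT1 library was far above every wild type library. The level was 20.5-fold higher under PAC (95% interval 17.2 to 24.4, edgeR adjusted p = 3.41e-14) and 19.7-fold higher under PAC+GA3 (16.6 to 23.5, adjusted p = 2.98e-14). Reads of the transgene and of the native KNAT1 gene fall in the same row and cannot be told apart.

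**Figure D2:**
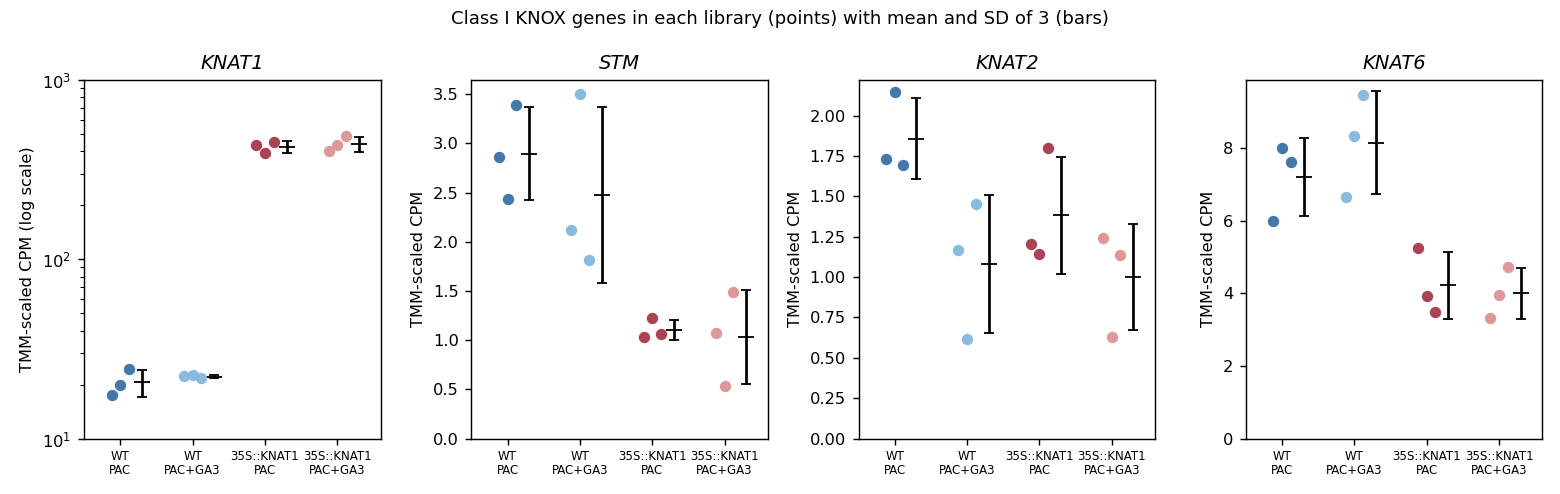
TMM-scaled CPM of each class I KNOX gene in each library (points, 3 per group), with the mean and SD beside them, and a log axis for KNAT1. STM and KNAT6 are lower in the 35S::KNAT1 groups in both media, while the KNAT2 libraries of the genotypes overlap.

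STM was lower in the 35S::KNAT1 line. Its counts were 33, 25 and 36 in wild type PAC and 12, 15 and 10 in 35S::KNAT1 PAC, or 2.9 ± 0.475 against 1.11 ± 0.103 CPM (SD, n = 3). With GA3 they were 29, 34 and 20 in wild type and 13, 6 and 17 in the line, or 2.48 ± 0.896 against 1.03 ± 0.477 CPM. No library of the line reached any wild type library, in either medium. The log2 difference (35S::KNAT1 minus wild type) was -1.38 ± 0.33 (SE) under PAC (edgeR adjusted p = 0.00461) and -1.22 ± 0.34 under PAC+GA3 (adjusted p = 0.0115). Averaged over media, STM was 2.46-fold lower (95% interval 1.75 to 3.47, adjusted p = 0.000247).

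These calls rest on small counts. The call under PAC+GA3 was lost without wild type PAC+GA3 replicate 2 (-0.92, adjusted p = 0.0645) and without 35S::KNAT1 PAC+GA3 replicate 2 (-0.93, adjusted p = 0.0654), and the call under PAC without the libraries of high ribosomal RNA, which leaves wild type PAC with 1 library (-1.36, adjusted p = 0.0703).

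KNAT6 was also lower in the line. Its counts were 69, 82 and 81 in wild type PAC and 61, 48 and 33 in 35S::KNAT1 PAC, or 7.20 ± 1.07 against 4.22 ± 0.921 CPM (SD, n = 3). With GA3 they were 91, 81 and 104 in wild type and 40, 44 and 54 in the line, or 8.15 ± 1.41 against 4.0 ± 0.71 CPM. In CPM the genotypes did not overlap in either medium, and under PAC the nearest libraries were 5.98 and 5.26 CPM. The log2 difference was -0.76 ± 0.20 (SE) under PAC (edgeR adjusted p = 0.00925) and -1.02 ± 0.20 under PAC+GA3 (adjusted p = 0.000785). Averaged over media, KNAT6 was 1.85-fold lower (95% interval 1.51 to 2.27, adjusted p = 6.21e-05). Without the libraries of high ribosomal RNA the difference under PAC was -0.49 (adjusted p = 0.294).

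KNAT2, the close relative of KNAT6, did not pass the test. Its counts were 20, 22 and 18 in wild type PAC, 16, 6 and 16 in wild type PAC+GA3, 14, 14 and 17 in 35S::KNAT1 PAC and 15, 7 and 13 in 35S::KNAT1 PAC+GA3. The libraries of the genotypes overlapped in both media. The log2 difference was -0.44 ± 0.33 (SE) under PAC (edgeR adjusted p = 0.360), -0.12 ± 0.37 under PAC+GA3 (adjusted p = 0.854) and -0.28 ± 0.25 averaged over media (adjusted p = 0.392). The 95% interval of the last, from -0.80 to 0.24, holds both no change and a level up to 1.74-fold lower, so a moderate fall was not detectable at this depth.

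Of the 4 genes, 3 were called in each medium, KNAT1 higher and STM and KNAT6 lower, and these 3 also had groups that did not overlap. KNAT1 is the gene the transgene carries, so its call was set by the design. Only STM, KNAT2 and KNAT6 can be compared with all genes. Of all genes tested, 25.2% were called for genotype under PAC, 25.5% under PAC+GA3 and 39.8% averaged over media. Those called lower, as STM and KNAT6 were, made up 12.9% under PAC and 13.6% under PAC+GA3. In addition 40.4% and 38.6% had groups that did not overlap under PAC and PAC+GA3. Differences between the genotypes were thus common, and a call of STM or KNAT6 was not rare among genes. The log2 differences were 4.33 for KNAT1 and -1.30 and -0.89 for STM and KNAT6 averaged over media, against a median of 0.01 over all genes tested.

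**Figure D3:**
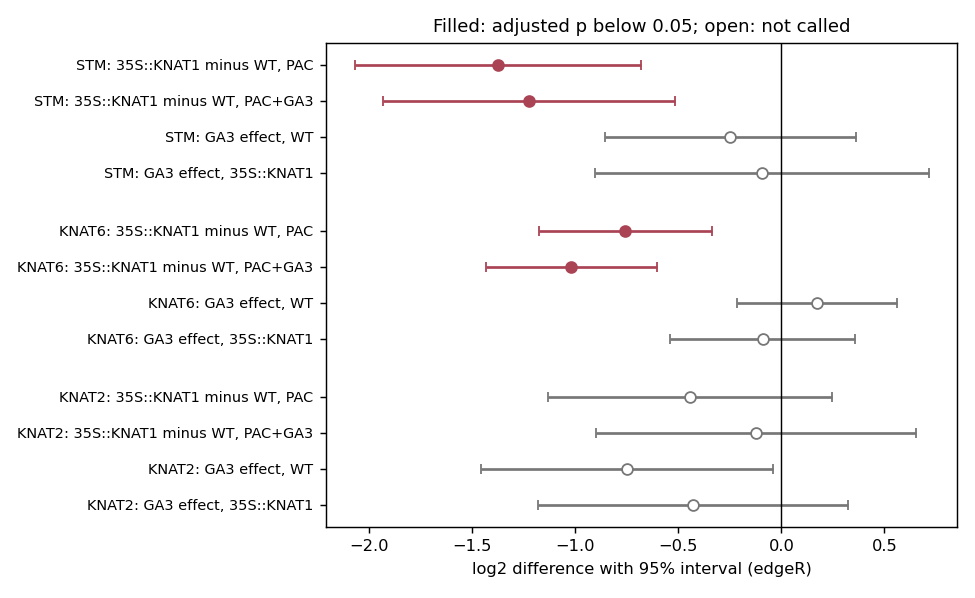
Log2 differences of STM, KNAT6 and KNAT2 with 95% intervals (edgeR), for genotype in each medium and for GA3 in each genotype. The genotype differences of STM and KNAT6 pass the test in both media (filled, -0.76 to -1.38), and no GA3 effect does (open).

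The different outcome for KNAT2 was tested by the ratio of 2 genes within a library. The scaling of libraries cancels in such a ratio, except through the 0.5 CPM added to each gene. The log2 ratio of STM to KNAT2 (CPM + 0.5) was 0.72 ± 0.61 in wild type and -0.10 ± 0.28 in the line (SD, n = 6), a difference of -0.82 (two-sided exact permutation p = 0.01 within media, adjusted over 3 ratios 0.03). The ratio of KNAT6 to KNAT2 was 2.09 ± 0.52 in wild type and 1.46 ± 0.44 in the line, a difference of -0.63 (exact permutation p = 0.02, adjusted 0.03). The smallest p this design allows is 0.005. The ratio of STM to KNAT6 differed by -0.19 (exact permutation p = 0.41, adjusted 0.41). The libraries of the genotypes overlapped in all 3 ratios. Each difference is the mean of the 2 media, and the SDs include any difference between media. The single genes differed by genotype by -0.76 (KNAT6) and -0.44 (KNAT2) under PAC. Under PAC+GA3 they differed by -1.02 and -0.12, so KNAT6 and KNAT2 lay further apart with GA3. The ratios were not tested in single media.

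The 2 calls did not hold under every setting. With libraries paired by replicate number, which the check of the numbers allows in 1 of the 2 media, both had an adjusted exact p of 0.0938. Swapping genotype only within pairs gives fewer arrangements than permutation within media, so its smallest possible p is larger. Pairing thus left less room for a call but did not preclude it, since both ratios at that smallest p would have passed. The differences in ratio were the same with and without pairing. Leaving out 1 library lost the call for STM to KNAT2 in 5 of 12 cases and for KNAT6 to KNAT2 in 7 of 12, with adjusted p up to 0.075 and 0.0825.

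The 4 genes also made up different shares of the summed class I KNOX level. KNAT1 took 56.2% ± 2.56 of the summed RPKM in wild type PAC and 58.7% ± 3.50 in wild type PAC+GA3 (SD, n = 3), and 97.9% ± 0.211 and 98.2% ± 0.219 in the line. KNAT6 took 26.4% ± 2.49 and 28.8% ± 3.87 in wild type and 1.32% ± 0.286 and 1.20% ± 0.0987 in the line. The high KNAT1 level sets these shares. Without KNAT1, the summed RPKM of STM, KNAT2 and KNAT6 was 8.78 ± 0.881 in wild type PAC, 8.60 ± 1.13 in wild type PAC+GA3, 4.92 ± 0.506 in 35S::KNAT1 PAC and 4.43 ± 0.863 in 35S::KNAT1 PAC+GA3. KNAT6 was the largest part of that sum in every group, at a mean of 60.3% to 69.6%.

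**Figure D4:**
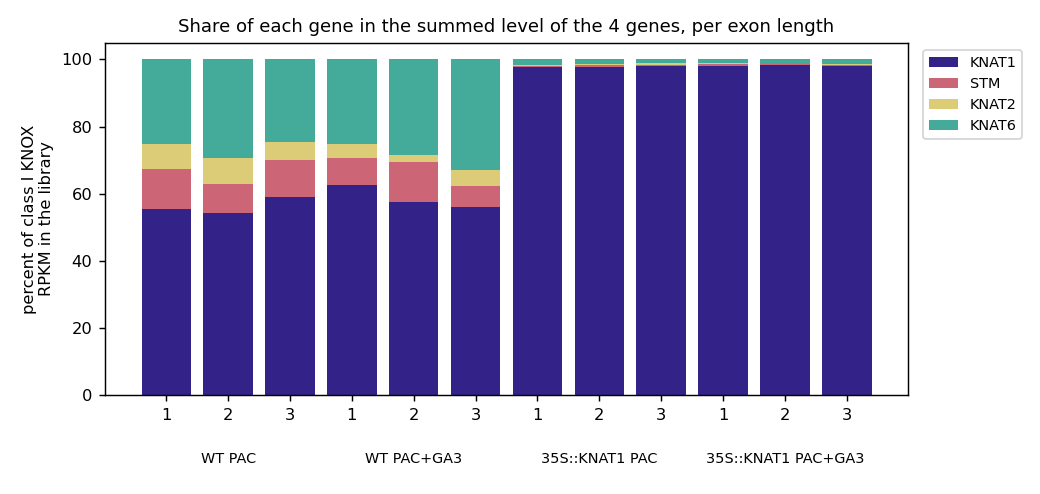
Share of each class I KNOX gene in the summed RPKM of the 4 genes, one bar per library, in percent. KNAT1 holds 54.2% to 62.6% in the wild type libraries and 97.7% to 98.4% in the 35S::KNAT1 libraries.

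GA3 changed none of the 4 genes past the threshold in either genotype (edgeR, also 0 with DESeq2). In wild type the log2 differences (PAC+GA3 minus PAC) were 0.10 ± 0.12 for KNAT1, -0.25 ± 0.29 for STM, 0.17 ± 0.18 for KNAT6 and -0.75 ± 0.34 for KNAT2 (SE). In 35S::KNAT1 they were 0.05 ± 0.10, -0.10 ± 0.38, -0.09 ± 0.21 and -0.43 ± 0.36. For KNAT1 the 95% intervals, from -0.15 to 0.35 and from -0.17 to 0.26, leave room for small changes, whereas for STM, from -0.86 to 0.36 and from -0.91 to 0.72, larger ones were not detectable.

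KNAT2 was nearest to a call. In wild type its libraries with GA3, at 0.617 to 1.46 CPM, lay below those without, at 1.69 to 2.15 CPM, and its unadjusted p was 0.0394 (edgeR adjusted p = 0.554). Of all genes tested, 5.94% had wild type libraries with GA3 all below those without. In the 35S::KNAT1 line the KNAT2 groups overlapped. Of all genes tested, 0.0453% (9 genes) were called for GA3 in wild type and 0.111% (22 genes) in the line. With the replicate number as a block, which the check of the numbers allows for both, 94 and 81 genes were called, and still none of the 4. Leaving out 1 library gave 3 to 16 and 2 to 24 genes. GA20OX2, a GA synthesis enzyme under feedback by GA, fell in both, by 2.88 ± 0.40 (adjusted p = 0.0208) and by 2.91 ± 0.39 (adjusted p = 0.0116) on the log2 scale. With the replicate block its edgeR adjusted p was 6.58e-06 in wild type and 1.96e-06 in the line. With DESeq2 it was 3.18e-08 and 5.69e-09. GA20OX2 was called in 14 of 21 alternatives in wild type and in 18 of 21 in the line. Its call in wild type was lost without wild type PAC replicate 3, any 1 of the wild type PAC+GA3 replicates or 35S::KNAT1 PAC+GA3 replicate 3 (-3.06 to -2.74, adjusted p = 0.0508 to 0.105), without the libraries of high ribosomal RNA (-1.97, adjusted p = 0.382) and with only the groups compared (-2.88, adjusted p = 0.0625). Its call in the line was lost without 35S::KNAT1 PAC replicate 2 or PAC+GA3 replicate 1 or 3 (-2.90 to -2.74, adjusted p = 0.0671 to 0.122).

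The effect of GA3 did not differ detectably between the genotypes for any of the 4 genes. The interaction was -0.05 ± 0.16 for KNAT1, 0.15 ± 0.48 for STM, 0.32 ± 0.49 for KNAT2 and -0.26 ± 0.28 for KNAT6 (log2, SE). Over all genes 0% were called for it (edgeR, 363 genes at an unadjusted p under 0.05, and 0 with DESeq2).

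The genes whose profiles were most like those of the class I KNOX genes were found by the root mean square (RMS) difference of centred log2 CPM over the 12 libraries, among 7128 genes with a symbol and a mean of at least 1 CPM. For KNAT6 they were MPK12, a MAP kinase (RMS 0.138), MAP65-8, a microtubule-associated protein (0.144), and IAA1, an auxin-response repressor (0.155). For STM they were LTP6, a lipid-transfer protein (0.302), J20, a J-domain protein (0.304), and ATOFP1, an OVATE family protein (0.316). MPK12, MAP65-8 and IAA1 thus followed KNAT6 more closely, by this measure, than LTP6, J20 and ATOFP1 followed STM, whose counts are lower. STM also varied more around its own mean (RMS 0.697, against 0.489 for KNAT6), which the measure does not take into account.

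For KNAT2 the most alike were RAPTOR1A (0.246), UGT71C1 (0.268) and YUC4, an auxin synthesis enzyme (0.274), against an RMS of 0.457 of KNAT2 around its own mean. For KNAT1 they were SADHU10-1 (0.283), ATHSD3 (0.322) and DAR5 (0.334), each far higher in the line than in wild type. ATHSD3 stood at 0.731 ± 0.234 and 0.790 ± 0.315 CPM in the wild type groups and at 14.4 ± 1.10 and 15.8 ± 2.1 CPM in the line (SD, n = 3). DAR5 had 0 counts in every wild type library and means of 2.45 and 2.22 CPM in the line.

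The related gene lists are described for genotype averaged over media, with called meaning an edgeR adjusted p under 0.05. Of all genes tested, 20.0% were called higher and 19.8% lower. The CPM levels given are means over the 6 libraries of a genotype.

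Among the other KNOX genes, class II KNOX and KNATM, 3 of 5 rose and 1 fell (median log2 difference 0.25). KNAT3 rose from 35.1 ± 3.27 to 46.1 ± 3.92 CPM (0.39 ± 0.07, adjusted p = 0.000199) and KNAT4 from 19.6 ± 1.58 to 23.4 ± 2.97 CPM (0.25 ± 0.07, adjusted p = 0.0135). KNAT4 lost its call without the libraries of high ribosomal RNA (0.12, adjusted p = 0.345). KNATM, a KNOX protein without a homeodomain, rose from 0.904 ± 0.297 to 1.69 ± 0.58 CPM (0.90 ± 0.29, adjusted p = 0.0207), a call lost when wild type PAC replicate 1, 35S::KNAT1 PAC replicate 2 or 3, or 35S::KNAT1 PAC+GA3 replicate 3 was left out (adjusted p = 0.0509 to 0.0627). KNAT5 fell from 31.5 ± 1.09 to 27.6 ± 1.71 CPM (-0.19 ± 0.06, adjusted p = 0.0166), and was not called with scaling by total counts (-0.09, adjusted p = 0.201) or without 35S::KNAT1 PAC+GA3 replicate 2 (-0.16, adjusted p = 0.0531).

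Of the BELL partners, 11 of 13 were tested, and 4 rose and 4 fell (median 0.00). PNY, a partner of STM and KNAT1 in the meristem, rose from 7.76 ± 1.31 to 11.7 ± 1.00 CPM (0.60 ± 0.10, adjusted p = 0.000133), and BLH7 (0.25 ± 0.06) and BLH1 (0.27 ± 0.08) rose too. SAW2 and SAW1, which repress KNOX genes in leaves, fell, SAW2 from 20.3 ± 1.66 to 14.8 ± 0.716 CPM (-0.45 ± 0.07, adjusted p = 6.41e-05) and SAW1 by 0.35 ± 0.09 on the log2 scale (adjusted p = 0.00381). BLH3 fell as well (-0.27 ± 0.07), as did BLH6 (-0.39, adjusted p = 0.0159). BLH6 was not called with scaling by total counts (-0.29, adjusted p = 0.0662) and stood at -0.17 without the libraries of high ribosomal RNA. PNF, the other gene that rose (0.41, adjusted p = 0.0393), lost its call in 10 of 19 alternatives, DESeq2 among them (adjusted p = 0.0903). BLH1 and BLH3 lost their calls without the libraries of high ribosomal RNA (0.17, adjusted p = 0.260, and -0.25, adjusted p = 0.0650), and BLH3 also with scaling by total counts (-0.17, adjusted p = 0.0720). Only 2 of the list fell under either of these settings.

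Of the 9 repressors of KNOX genes in leaves, 3 rose and 2 fell (median 0.10). BOP2 and BOP1, BTB-ankyrin proteins of the leaf base, rose by 0.54 ± 0.08 (adjusted p = 1.55e-05) and 0.81 ± 0.18 (adjusted p = 0.00137). AS1, a MYB factor that represses KNAT1, KNAT2 and KNAT6 in leaves, rose from 50.2 ± 4.03 to 64.5 ± 5.11 CPM (0.36 ± 0.06, adjusted p = 0.000213). SWN, a Polycomb methyltransferase, fell by 0.33 ± 0.07 (adjusted p = 0.000619) and HIRA, a histone chaperone, by 0.37 ± 0.08 (adjusted p = 0.00213). AS2, the partner of AS1, was at 0.36 ± 0.14 (adjusted p = 0.0531) and was called with scaling by total counts.

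Of the boundary genes acting with KNOX, 5 of 6 were tested, and 2 rose and none fell (median -0.26). CUC1, a NAC factor needed for STM activation in the embryo, rose from 0.509 ± 0.267 to 2.03 ± 0.406 CPM (1.94 ± 0.30, adjusted p = 4.69e-05), and LOB, a boundary factor, from 1.68 ± 0.200 to 4.27 ± 0.357 CPM (1.34 ± 0.14, adjusted p = 7.43e-07). The 6 libraries of each genotype did not overlap for either gene, as for 10.4% of all genes tested in that direction. CUC2, CUC3 and JLO stood at -0.39, -0.65 and -0.26 and were not called, so the median and the calls differ in sign. CUC3 was called lower without wild type PAC+GA3 replicate 3 (-0.78, adjusted p = 0.0474).

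Of 10 hormone genes downstream of KNOX, 8 were tested, and 1 rose and 2 fell (median -0.14). GA2OX6, a GA-inactivating oxidase, fell from 9.10 ± 2.67 to 5.87 ± 1.97 CPM (-0.66 ± 0.12, adjusted p = 0.000332). ARR7, a type-A cytokinin response regulator, fell from 14.0 ± 2.95 to 8.81 ± 1.09 CPM (-0.67 ± 0.13, adjusted p = 0.000676), and was at -0.33 (adjusted p = 0.0635) without the libraries of high ribosomal RNA. GA2OX4 was called lower under PAC (-2.47 ± 0.87, adjusted p = 0.0475). Its counts were 2 to 14 in wild type and 0 to 3 in the line. Its libraries overlapped, however, and its call was lost in 9 of 19 alternatives. Under PAC+GA3 it was at 0.887 ± 0.48 CPM in wild type and 1.3 ± 0.466 CPM in the line (0.60 ± 0.52, adjusted p = 0.443), and averaged over media it was not called (-0.93 ± 0.52, adjusted p = 0.171). The gene that rose was IPT5, a cytokinin synthesis enzyme (0.46 ± 0.15, adjusted p = 0.0195), whose call was lost without wild type PAC replicate 3 or PAC+GA3 replicate 3 (adjusted p = 0.0510 and 0.0511) and with DESeq2 (adjusted p = 0.0523).

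Of the 8 lignin genes described downstream of KNAT1, 6 fell and none rose (median -0.21). In the single media, 4 of the 8 fell under PAC and 1 under PAC+GA3, beside 12.9% and 13.6% of all genes tested. Under PAC the call of C4H was lost in 13 of 21 alternatives, that of LAC17 in 4, CAD5 in 3 and LAC4 in 1. Of the genes not called under PAC, 4CL1 was called in 9 of 21 and PAL1 in 1. The 6 include 4CL1 (-0.20) and CCOAOMT1 (-0.19), which were not called with scaling by total counts (adjusted p = 0.177 and 0.184). The falls were modest. CAD5, a cinnamyl alcohol dehydrogenase, was at -0.45 ± 0.10 (adjusted p = 0.00228), the laccases LAC17 and LAC4 at -0.38 ± 0.09 (adjusted p = 0.00247) and -0.33 ± 0.08 (adjusted p = 0.00193), and C4H, an early phenylpropanoid enzyme, at -0.22 ± 0.06 (adjusted p = 0.00444). With scaling by total counts, which raises the median of all genes by about 0.1 on the log2 scale, 3 of the 8 fell and C4H was not called (-0.12, adjusted p = 0.0893). LAC4 and LAC17 were not called without the libraries of high ribosomal RNA (adjusted p = 0.0633 and 0.0817).

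**Figure D5:**
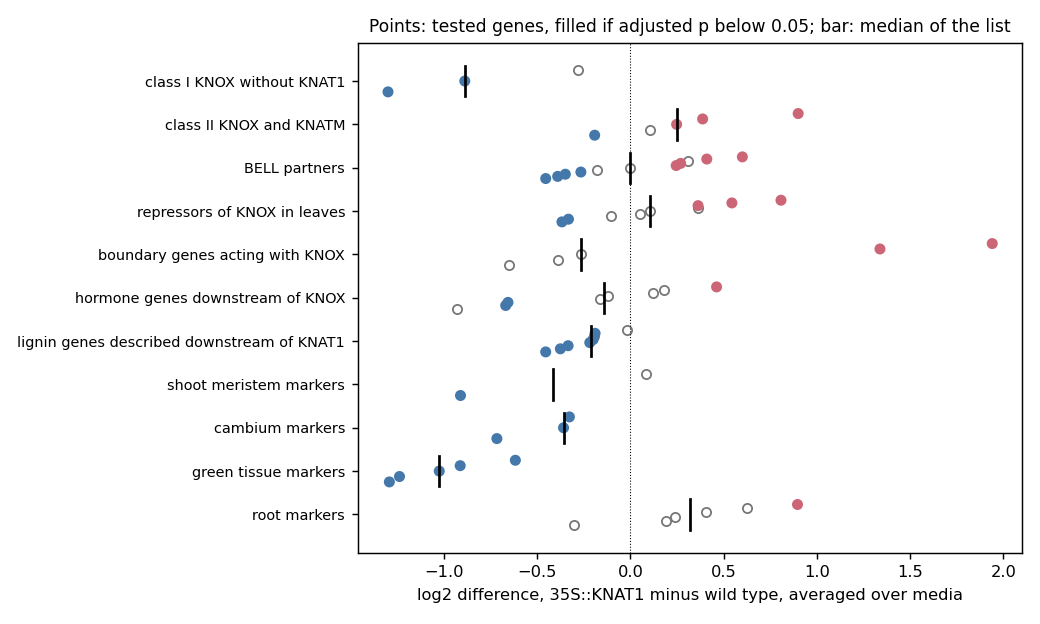
Log2 differences between 35S::KNAT1 and wild type, averaged over media, of the class I KNOX genes other than KNAT1 and of the tested genes of each related list, with the list's median as a bar and called genes filled. STM and KNAT6 lie at -1.30 and -0.89 (filled) and KNAT2 at -0.28 (open).

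Tissue markers differed between the genotypes as well. All 5 green tissue markers fell (median -1.03), and their summed level was 31438 to 40206 CPM in the wild type libraries and 15770 to 19502 CPM in the line, with PSBO2 (-1.29 ± 0.09), RCA (-1.24 ± 0.09), RBCS1A (-1.03 ± 0.08), CAB1 (-0.91 ± 0.10) and PSAD1 (-0.62 ± 0.08) each past the test. All 3 cambium markers, which label tissue where KNAT1 acts, fell, WOX4 by 0.72 ± 0.14, PXY by 0.36 ± 0.09 and ATHB8 by 0.33 ± 0.07 on the log2 scale. Their summed level was 66.3 to 90.3 CPM in wild type and 52.2 to 65.4 CPM in the line. PXY and ATHB8 were not called without the libraries of high ribosomal RNA (adjusted p = 0.155 and 0.0825).

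Of 6 root markers, 1 was called, EXPA7, an expansin of root hair cells, which rose (0.89 ± 0.16, adjusted p = 0.000232). The other 5 were not called. EXPA18, the most abundant, was at 11.4 ± 4.44 CPM in wild type and 18.1 ± 5.17 CPM in the line (adjusted p = 0.0846). Of the 6 differences 5 were positive, and PLT1 was lower in the line (2.70 ± 0.807 against 2.20 ± 0.569 CPM). The summed level was 22.2 to 40.2 CPM in wild type and 34.4 to 58.8 CPM in the line, which overlap. Of 6 shoot meristem markers, 2 were tested. HEC1, a bHLH factor, fell (-0.91 ± 0.13, adjusted p = 4.74e-05), and CLV1, a receptor kinase, was at 0.09 ± 0.08 (adjusted p = 0.451), though it was called higher without the libraries of high ribosomal RNA (0.26, adjusted p = 0.0386). The summed level of the meristem markers was 68.8 to 89.1 CPM in wild type and 60.4 to 75.9 CPM in the line, nearly all of it from CLV1 and HEC1. The part of these tissue differences in the lower STM and KNAT6 levels was not tested.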

How the data were processed

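Whole-seedling RNA-seq was deposited as 1 table of raw read counts per gene, with 1 column per library, which the authors made from reads on the TAIR10 build, per the submitters' processing notes. These name TopHat2 2.1, edgeR 3.0.2, DESeq2 1.16.1, FastQC 0.11.5 and cutadapt 1.8.3 without roles. How reads were counted, and on which strand, is not given in the sources used here, and the labels name both an unstranded and a stranded library kit. Sample titles gave the groups and the replicate numbers. Replicates differed by a chi-square of 3.75 to 15.0 per degree of freedom, so none were copies.

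Counts were tested with edgeR 4.0.16 (R 4.3.3) after filterByExpr (minimum count 10) and TMM scaling, in 1 robust quasi-likelihood model of 4 group means over 12 libraries. The p-values were adjusted by Benjamini-Hochberg over 19879 genes, with calls below 0.05. The common biological coefficient of variation was 10.3%. CPM and RPKM were computed from the counts. DESeq2 1.42.0, other scalings and filters, left-out libraries and a replicate block were alternatives. Ratios of genes were tested by exact permutation of genotype within media (400 arrangements).

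Replicate numbers pair samples where all same-numbered libraries deviate together (correlation over 0.1). They did for genotype under PAC (0.103 to 0.250) and for GA3 in wild type (0.170 to 0.359) and in 35S::KNAT1 (0.120 to 0.203), but not for genotype under PAC+GA3 (-0.029 to 0.134). The labels do not say what a number marks.

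The 4 genes and the 10 related lists (71 genes) were chosen with earlier results of these data known. Named are the 4 genes, the 3 most alike to each, and up to 6 genes per list called for genotype in either medium, by smallest p averaged over media. Other list genes are named where a count of 5 or fewer needs them, after their values were seen. GA2OX4 and GA2OX6 shared an ID in the table and were told apart by coordinates.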

Additional observations from a re-analysis of the deposited data

How the results depend on the processing

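KNAT1, STM and KNAT6 kept their direction and their call for genotype averaged over media under each alternative that gave a value (scaling, filter, gene set, DESeq2, replicate block, left-out libraries), with log2 ranges of 4.28 to 4.48, -1.47 to -1.15 and -0.98 to -0.69. The stricter filter (5 CPM in 3 libraries) removed STM and KNAT2, which is its own construction. Small counts limit STM and KNAT2 most. Scaling by total counts moved the median of all genes for genotype averaged over media from 0.01 to 0.10 and the share of higher calls from 50.3% to 69.0% (48.7% to 67.4% under PAC, 46.9% to 66.5% under PAC+GA3), and the calls of the 4 genes held. Causes of the changes below were not tested.

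Without the libraries of high ribosomal RNA, under PAC, STM was at -1.36 and KNAT6 at -0.49, both uncalled, 1 of the 4 genes was called and 2577 genes in all, and for GA3 0 genes were called in wild type and 9 in 35S::KNAT1, with KNAT6 reversed to 0.0328 in the latter. In the same setting the BELL list had 2 lower, hormone genes 1 lower, cambium 1 lower and meristem markers 1 higher. With total-count scaling class II KNOX had 0 lower, BELL 2 lower, lignin 3 lower, leaf repressors 5 higher and root markers 2 higher. The stricter filter left 0 boundary and 0 hormone genes higher, DESeq2 0 hormone genes higher, and the replicate block 2 root markers higher.

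Genes called for GA3 in wild type numbered 9, and 14 with total-count scaling, 17 without rRNA and organelle genes, 18 with no filter, 43 with DESeq2, 94 with the replicate block and 2 with only the groups compared. In 35S::KNAT1 they numbered 22, and 44 with DESeq2, 81 with the replicate block and 37 with only the groups compared. The replicate block changed no call of the 4 genes' log2 differences. It ended the calls of both ratios, STM to KNAT2 (-0.82) and KNAT6 to KNAT2 (-0.63), with an adjusted p of 0.0938 each. Permutation within pairs has fewer arrangements than within media, and so a larger smallest possible p, which left less room for a call. A call was still possible, since both ratios at that smallest p would have passed. The ratio KNAT6 to KNAT2 was also not called with CPM + 0.1 (-0.64, adjusted p = 0.09) and with no strata (-0.63, adjusted p = 0.0682).

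Leaving out 1 library gave 3 to 16 genes for GA3 in wild type (16 without wild type PAC replicate 1, 5 without replicate 2, 3 and 4 without wild type PAC+GA3 replicates 1 and 3, 4 without 35S::KNAT1 PAC+GA3 replicate 3). In 35S::KNAT1 it gave 2 to 24 (12 without wild type PAC replicate 3, 2 and 5 without 35S::KNAT1 PAC replicates 2 and 3, and, leaving out 35S::KNAT1 PAC+GA3 replicate 1, 2 or 3, 8, 6 and 3). STM under PAC+GA3 ranged from -1.57 to -0.92. The ratio STM to KNAT2 ranged from -0.99 to -0.59, uncalled without wild type PAC replicate 3, wild type PAC+GA3 replicate 2, 35S::KNAT1 PAC replicate 3 or 35S::KNAT1 PAC+GA3 replicate 1 or 3. The ratio KNAT6 to KNAT2 ranged from -0.74 to -0.50, uncalled without those 5 libraries, wild type PAC replicate 2 or wild type PAC+GA3 replicate 3. Values that were never called changed sign: KNAT1 for GA3 (-0.0294 to 0.11 in 35S::KNAT1, -0.00585 to 0.25 in wild type) and the interaction (-0.20 to 0.0533), STM for GA3 in 35S::KNAT1 (-0.44 to 0.20) and the interaction (-0.19 to 0.45), KNAT2 for genotype under PAC+GA3 (-0.36 to 0.12) and KNAT6 for GA3 in 35S::KNAT1 (-0.23 to 0.10). Called list genes ranged from 0 to 1 for class II KNOX lower (0 without 35S::KNAT1 PAC+GA3 replicate 2), boundary lower and hormone higher, and from 1 to 2 for root markers higher (2 without wild type PAC or PAC+GA3 replicate 1).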
